A study of Homo sapiens with 4 samples.

Results

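The growth factor receptor kinases described here are 10 cell surface receptors with a tyrosine kinase domain: EGFR, ERBB2 and ERBB3 of the ErbB family, IGF1R and INSR of the insulin receptor family, MET, and FGFR1, FGFR2, FGFR3 and FGFR4 of the fibroblast growth factor receptor family. They were taken by gene symbol, and all 10 were among the 18417 genes measured. Expression was measured on Affymetrix whole-transcript arrays in cells of the human prostate cancer line LNCaP and of LTAD, a subline derived from it by long growth without androgen. The 4 groups, of 1 array each, were LTAD cells transfected with an siRNA against PSF (siPSF), LTAD cells transfected with a control siRNA (siControl), LTAD cells that were not transfected, and LNCaP cells. LTAD cells grew without phenol red in 10% serum stripped with charcoal, while LNCaP cells, otherwise kept in full serum, had spent 24 h without phenol red in 2.5% stripped serum, so that line and culture cannot be told apart. PSF is the RNA-binding protein encoded by SFPQ.

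Growth factor receptor kinases bind a ligand outside the cell, pair up, and phosphorylate each other and docking proteins, which switches on the RAS-ERK and PI3K-AKT cascades. In prostate cancer cells these cascades carry growth and survival signals that do not need androgen, and they act on the androgen receptor itself. ERBB2 has no known ligand of its own and ERBB3 has a weak kinase, so that each signals mainly by pairing with another ErbB receptor.

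RefSeq promoter windows on GRCh38.p14, from 250 bases before to 50 bases after a start site, were found for 8 of the 10 receptors, all but ERBB3 and FGFR1. The start site is the outer end of the annotated gene for EGFR, ERBB2, IGF1R and MET, and for FGFR2 it lies a little inside that end. The 5 windows below were chosen with the values known. MET had the largest difference between the siPSF and siControl arrays. EGFR and ERBB2 lay on opposite sides of 0 between the siPSF and siControl arrays, and IGF1R and FGFR2 did so between siControl LTAD and LNCaP. Capitals mark the GC box GGGCGG, the letters bound by SP1-type factors, on either strand, and overlapping matches were both counted.
EGFR, chr7:55018767-55019066 (+ strand): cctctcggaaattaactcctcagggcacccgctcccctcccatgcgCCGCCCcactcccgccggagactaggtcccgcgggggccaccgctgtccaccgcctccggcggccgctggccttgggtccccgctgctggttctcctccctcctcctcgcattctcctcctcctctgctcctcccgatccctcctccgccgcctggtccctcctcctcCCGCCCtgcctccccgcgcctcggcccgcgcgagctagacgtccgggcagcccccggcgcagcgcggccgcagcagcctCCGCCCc
ERBB2, chr17:39687844-39688143 (+ strand): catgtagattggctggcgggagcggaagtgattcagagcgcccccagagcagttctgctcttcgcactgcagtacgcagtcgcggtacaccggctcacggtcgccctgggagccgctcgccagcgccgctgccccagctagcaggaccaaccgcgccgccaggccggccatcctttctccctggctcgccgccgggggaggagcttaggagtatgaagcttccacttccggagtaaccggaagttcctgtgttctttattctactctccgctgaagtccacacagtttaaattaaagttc
IGF1R, chr15:98648289-98648588 (+ strand): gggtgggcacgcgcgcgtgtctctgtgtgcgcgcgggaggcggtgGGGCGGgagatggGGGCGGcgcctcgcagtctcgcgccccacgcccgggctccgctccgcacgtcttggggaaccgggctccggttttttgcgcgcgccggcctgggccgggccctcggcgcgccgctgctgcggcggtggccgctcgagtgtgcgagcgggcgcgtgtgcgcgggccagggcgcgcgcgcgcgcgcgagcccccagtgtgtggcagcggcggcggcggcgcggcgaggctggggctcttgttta
MET, chr7:116671946-116672245 (+ strand): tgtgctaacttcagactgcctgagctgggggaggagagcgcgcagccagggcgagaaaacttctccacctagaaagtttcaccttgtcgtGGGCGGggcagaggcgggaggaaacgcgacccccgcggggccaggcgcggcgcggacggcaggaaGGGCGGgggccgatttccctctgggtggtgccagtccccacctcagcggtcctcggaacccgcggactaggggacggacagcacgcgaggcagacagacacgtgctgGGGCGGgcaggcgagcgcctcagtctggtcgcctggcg
FGFR2, chr10:121598395-121598694 (- strand): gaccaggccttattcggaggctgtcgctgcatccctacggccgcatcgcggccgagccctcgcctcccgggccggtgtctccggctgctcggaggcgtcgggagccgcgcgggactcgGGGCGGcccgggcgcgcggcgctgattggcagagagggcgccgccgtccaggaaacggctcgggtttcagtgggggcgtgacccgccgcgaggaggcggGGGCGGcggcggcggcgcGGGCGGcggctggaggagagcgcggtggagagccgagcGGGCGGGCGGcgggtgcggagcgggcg

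The ERBB2 window held no GC box, and the EGFR, IGF1R, MET and FGFR2 windows held 3, 2, 3 and 5. The other 3 windows held 4 for INSR, 7 for FGFR4 and 8 for FGFR3. A GC box occurred in 44.6% of the 27305 promoter windows of this length. ERBB2 also had the lowest content of G and C among the 8 receptors, at 60.7%, against 69.3% to 86.3% in the other windows and a median of 58.3% over all promoters. It was the single receptor window with an AP-1 site (TGANTCA, in 7.76% of all windows), with ETS cores (CCGGAAG, 2 of them, a motif in 10.7% of all windows) and with an androgen receptor half-site (AGAACA, 14.9%), searched on both strands, and these matches did not overlap. A TATA box (TATAAA, in 12% of all windows) was found in none of the 8. These matches are letters in a window and say nothing on which factors bind there.

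The deposited values were log2 levels whose columns were not on one scale, so levels and differences below are on the log2 scale after quantile normalization of the 4 arrays unless called deposited. A deposited level under 7.238, the median of all gene values, is called dim here. Nothing shows that a dim level exceeds background. A log2 difference or a 2-fold count that involves a dim level is therefore a reading whose size may be set by background, and it is not restated as a fold. A gene was kept if at least 1 array reached that value. This kept 11049 genes and 9 of the 10 receptors. The dim flag follows the deposited columns. It fell on 7, 6, 2 and 4 of the 10 receptors in siPSF, siControl, untransfected LTAD and LNCaP. After quantile normalization 5, 5, 5 and 4 lay under 7.233, the median of all gene values on that scale. With 1 array a group there is no error, no test and no way to say which neighbouring levels differ beyond replicate spread, and array, culture and transfection cannot be told apart. Nor can fewer cells of a kind be told from less RNA per cell. The siRNA target SFPQ read 9.87 with siPSF and 11.23 with siControl, against 10.82 in untransfected LTAD and 10.83 in LNCaP. Over 33297 probe sets the siPSF and siControl columns correlated at r = 0.992 and those of untransfected LTAD and LNCaP at 0.982, while siControl correlated with untransfected LTAD of its own line at 0.966 and with LNCaP at 0.973. The 2 transfected arrays therefore stood apart from untransfected LTAD, and KLK3, which encodes prostate-specific antigen, read 7.11 with siPSF and 7.47 with siControl, both dim, against 11.06 in untransfected LTAD and 12.89 in LNCaP. Of 5 measured markers of luminal prostate cells, 4 reached 7.238 in siPSF, 4 in siControl, 5 in untransfected LTAD and 5 in LNCaP, and none of 3 endothelial markers reached it in any array. Basal markers did so for 0, 0, 1 and 1 of 3, immune markers for 1, 0, 1 and 1 of 3, neuroendocrine markers for 1 of 4 in each array and stromal markers for 2, 2, 4 and 2 of 6, in the same order. These counts use deposited columns that are not on one scale. At 7.233 on quantile-normalized values, basal markers gave 1, 0, 0 and 0, stromal markers 2 in each array and immune markers 1. Luminal markers then gave 4, 5, 5 and 5, and the endothelial and neuroendocrine counts stayed as they were. The stromal gene LUM read higher by 5.02 in untransfected LTAD than in LNCaP, VIM by 1.88 in siControl than in untransfected LTAD, and the neuroendocrine gene ENO2 by 0.85 in siPSF than in siControl. Where LUM read higher, VIM differed by -0.68, and COL1A1, COL1A2, COL3A1 and DCN by 0.28, 0.31, 0.43 and 0.29. Where VIM read higher, LUM differed by -5.59, COL1A1 by -0.12, COL3A1 by -0.04, COL1A2 by 0.34 and DCN by 0.50. Where ENO2 read higher, NCAM1, CHGA and SYP, dim in all arrays, differed by 0.23, -0.23 and -0.15. LUM was dim outside untransfected LTAD, and COL1A2 and DCN were dim in all arrays. The part of such markers in the results below was not tested. Deposited columns shifted the median kept gene by -0.92 for siControl against untransfected LTAD, -0.72 for siControl LTAD against LNCaP and 0.20 for untransfected LTAD against LNCaP, and by -0.02 for siPSF against siControl. Centring each array on its median left shifts of 0.30, 0.21, -0.09 and -0.08.

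**Figure D1:**
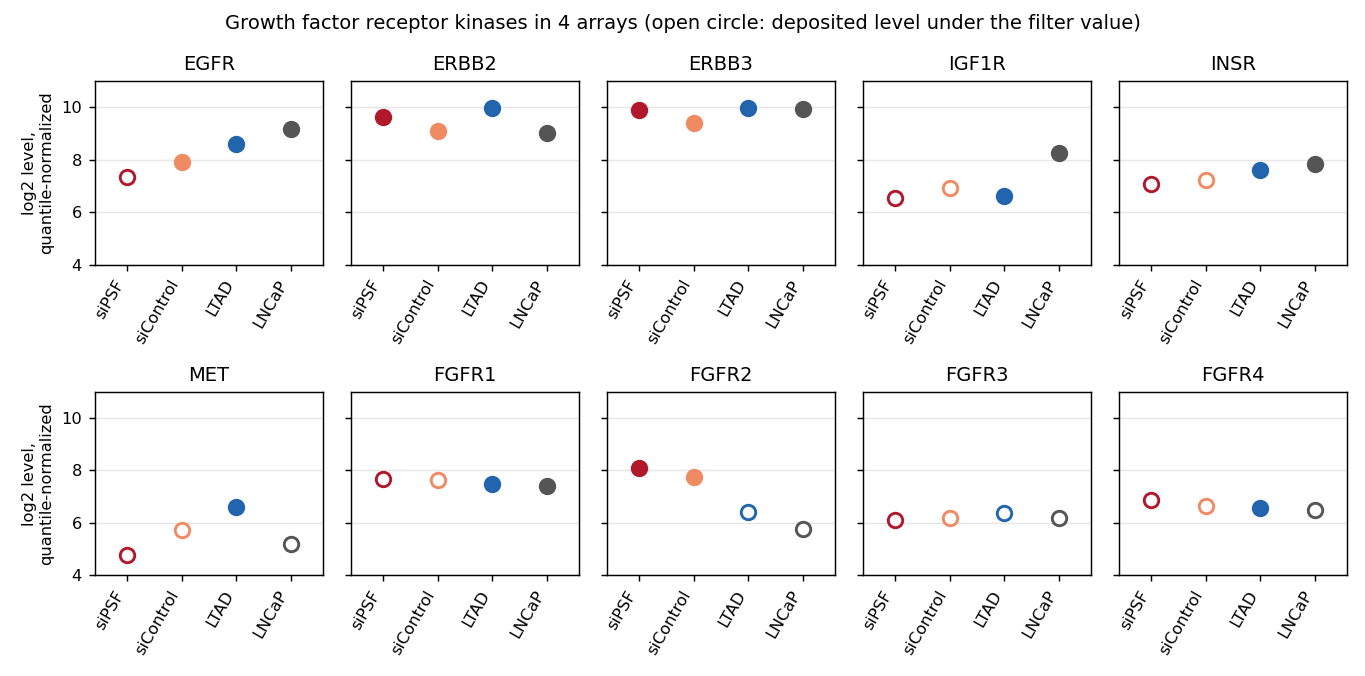
Quantile-normalized log2 level (vertical axis) of each receptor in the siPSF, siControl, untransfected LTAD and LNCaP arrays, 1 array a point, with open circles where the deposited level was under 7.238. EGFR and INSR are highest in LNCaP and lowest with siPSF, FGFR2 is high in the 2 transfected arrays, IGF1R is high in LNCaP, and FGFR3 is dim in all 4 arrays.

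The first question was what PSF knockdown did to these receptors. No receptor was 2-fold apart between the siPSF and siControl arrays, where 0.0634% of kept genes passed 2-fold upwards and 0.661% downwards. Of the 9 kept receptors 5 were above 0 and 4 below, with a median of 0.05, against -0.01 over all kept genes. ERBB2 and ERBB3 read higher with siPSF by 0.52 and 0.50, and MET and EGFR read lower, with differences of -0.95 and -0.55. The gap between siPSF and siControl was smaller than the gap between siControl and untransfected LTAD for 7 of the 10 receptors, the exceptions being IGF1R, MET and FGFR4. The 10 include FGFR3, which was not kept, and the same share over all kept genes was not counted. All kept genes also passed 2-fold more often between siControl and untransfected LTAD, at 5.54% upwards and 4.32% downwards.

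EGFR is the receptor of epidermal growth factor and of amphiregulin-type ligands and lies on chromosome 7 (GRCh38.p14, like the positions that follow) from 55019017 to 55211628. Its level was 7.35 with siPSF, 7.90 with siControl, 8.59 in untransfected LTAD and 9.17 in LNCaP. The siPSF array was thus lowest and LNCaP highest, and the siPSF level was dim, at a deposited 6.88. Between siControl LTAD and LNCaP, neither of them dim, EGFR was 2.41-fold lower in siControl LTAD. In untransfected LTAD it differed from LNCaP by -0.57 and in siControl from untransfected LTAD by -0.69. On deposited and on centred values EGFR kept its direction in all 4 comparisons.

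ERBB2, also known as HER2, lies on chromosome 17 from 39688094 to 39728658. It read 9.62 with siPSF, 9.10 with siControl, 9.97 in untransfected LTAD and 9.03 in LNCaP. Untransfected LTAD was the highest array, and siControl lay close to LNCaP. The difference of untransfected LTAD from LNCaP was 0.94, just under 2-fold, and on the deposited values 1.08, just over it. Between siControl LTAD and LNCaP it was 0.07, which turned to -0.66 on the deposited values. ERBB2 was not dim in any array.

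ERBB3, which pairs with ERBB2 to bind neuregulins, lies on chromosome 12 from 56080108 to 56103505. Its level was 9.90 with siPSF, 9.40 with siControl, 9.99 in untransfected LTAD and 9.94 in LNCaP. Here siControl was the low array, and the other 3 lay close together. ERBB3 thus differed by 0.50 between siPSF and siControl, but by -0.09 between siPSF and untransfected LTAD, a direction that turned to 0.19 on centred values. ERBB2 likewise read lower with siPSF than in untransfected LTAD, with a difference of -0.35. The higher ERBB2 and ERBB3 levels with siPSF were therefore seen against siControl and not against the untransfected array.

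In the insulin receptor family, IGF1R read lower in each LTAD array than in LNCaP. IGF1R, the receptor of insulin-like growth factors, lies on chromosome 15 from 98648539 to 98964530 and was read by 2 probe sets. The brighter one gave 6.53 with siPSF, 6.91 with siControl, 6.61 in untransfected LTAD and 8.24 in LNCaP. The 3 LTAD arrays lay close together and LNCaP apart from them. Untransfected LTAD, at a deposited 7.26 just over the dim value, differed from LNCaP by -1.63, and siControl LTAD, which was dim, by -1.33. After quantile normalization both LTAD levels lay under 7.233, and untransfected LTAD was the lower of them. The second probe set differed by -1.66 and -1.14 in these comparisons, though its deposited levels were dim throughout. Between siPSF and siControl the probe sets did not share a direction, at -0.38 and 0.05.

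INSR, the insulin receptor, lies on chromosome 19 from 7112265 to 7294414. It read 7.06 with siPSF, 7.22 with siControl, 7.60 in untransfected LTAD and 7.83 in LNCaP. The order was that of EGFR over a narrower range of 0.76, with both transfected arrays dim. It differed by -0.16 between siPSF and siControl, by -0.23 between untransfected LTAD and LNCaP and by -0.61 between siControl LTAD and LNCaP, with the same direction on deposited and centred values, though the second of these was -0.01 on deposited values.

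MET, the receptor of hepatocyte growth factor, lies on chromosome 7 from 116672196 to 116798377. Its deposited levels were 4.22 with siPSF, 5.13 with siControl, 7.25 in untransfected LTAD and 5.58 in LNCaP. Untransfected LTAD was thus the one array where MET was not dim, and it was so by a narrow margin. After quantile normalization MET read 4.77 with siPSF, 5.72 with siControl, 6.60 in untransfected LTAD and 5.18 in LNCaP. Its difference of -0.95 between siPSF and siControl was the largest of the 10 receptors in that comparison, between 2 dim levels. Against untransfected LTAD the siPSF difference was -1.83. In that comparison MET and EGFR were at least 2-fold lower with siPSF, where 5.24% of kept genes were, and FGFR2 was at least 2-fold higher, where 4.62% were. The siPSF levels of MET and EGFR and the untransfected level of FGFR2 were dim. MET and FGFR2 passed the filter only through arrays where they were high. MET read higher by 1.42 in untransfected LTAD than in LNCaP and by 0.55 in siControl LTAD than in LNCaP, which turned to -0.44 on the deposited values.

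Among the fibroblast growth factor receptors FGFR2 was the one with a wide range. FGFR2, whose epithelial form binds ligands made by stroma, lies on chromosome 10 from 121478330 to 121598458. It read 8.09 with siPSF, 7.76 with siControl, 6.39 in untransfected LTAD and 5.76 in LNCaP. The transfected arrays were high and not dim, at deposited levels of 7.63 and 7.30, and the untransfected arrays were dim. FGFR2 read higher by 2.003 in siControl LTAD than in LNCaP, by 1.37 in siControl than in untransfected LTAD, by 0.64 in untransfected LTAD than in LNCaP and by 0.33 in siPSF than in siControl. On the deposited values these differences were 1.15, 0.22, 0.92 and 0.33. The first 3 are against dim levels, so their sizes are readings of that kind.

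The other fibroblast growth factor receptors varied little. FGFR1, on chromosome 8 from 38411143 to 38468635, read 7.69 with siPSF, 7.64 with siControl, 7.49 in untransfected LTAD and 7.40 in LNCaP, with both transfected arrays dim on deposited values. After quantile normalization these were the higher arrays, and none lay under 7.233. The FGFR1 siPSF difference of 0.05 turned to -0.02 on centred values. FGFR4, on chromosome 5 from 177086915 to 177098144, read 6.89 with siPSF, 6.66 with siControl, 6.59 in untransfected LTAD and 6.51 in LNCaP. It was kept through untransfected LTAD alone, at a deposited 7.241. FGFR3, on chromosome 4 from 1793293 to 1808867, was the receptor just outside the filter, with deposited levels of 5.60 with siPSF, 5.60 with siControl, 7.04 in untransfected LTAD and 6.56 in LNCaP. After quantile normalization FGFR3 spanned 0.25, FGFR1 0.28 and FGFR4 0.38 over the 4 arrays, the narrowest ranges of the 10.

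**Figure D2:**
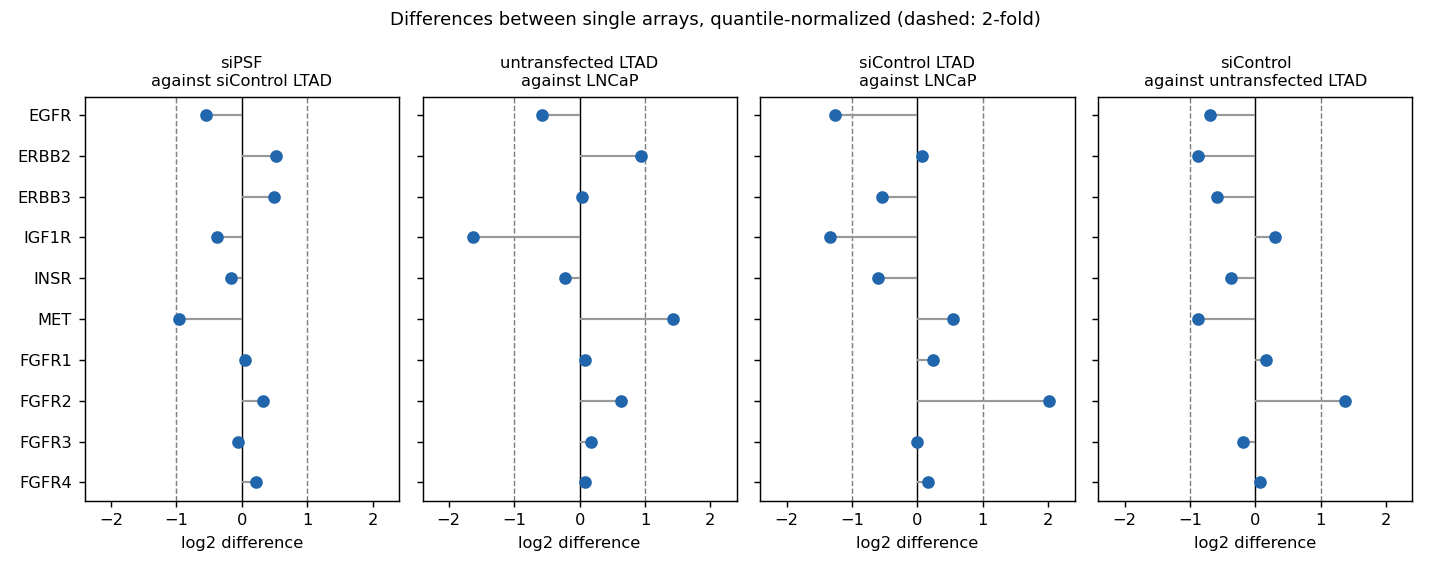
Log2 difference between 2 single arrays (horizontal axis) for each receptor in 4 comparisons, after quantile normalization, with dashed lines at 2-fold. No receptor passes 2-fold between siPSF and siControl, IGF1R lies at -1.63 and MET at 1.42 for untransfected LTAD against LNCaP, and FGFR2 reaches 2.003 for siControl LTAD against LNCaP.

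The second question was how LTAD differed from its parent line. Between untransfected LTAD and LNCaP, MET was at least 2-fold higher and IGF1R at least 2-fold lower, where 2.27% and 3.42% of kept genes were. With siControl as the LTAD array, FGFR2 was at least 2-fold higher and EGFR and IGF1R at least 2-fold lower, where 2.26% and 2.97% of kept genes were. Both comparisons share the LNCaP array. MET passed the filter only through untransfected LTAD and FGFR2 only through the transfected arrays, and both receptors were dim in LNCaP. Each was thus counted as higher in an array that let it pass, and these counts are readings whose size may be set by background. IGF1R was the single receptor past 2-fold in both comparisons, and its siControl level was dim. The medians of the 9 kept receptors were 0.08 and 0.07, against 0.02 and 0.05 over all kept genes.

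The third comparison set the 2 LTAD arrays without siPSF beside each other. FGFR2 was the one receptor at least 2-fold higher in siControl than in untransfected LTAD, where 5.54% of kept genes were, and none was at least 2-fold lower, where 4.32% were. FGFR2 passed the filter only through the transfected arrays and was dim in untransfected LTAD. The median of the 9 kept receptors was -0.38, against 0.04 over all kept genes. ERBB2, MET, EGFR and ERBB3 read lower in siControl, with differences of -0.87, -0.88, -0.69 and -0.58. IGF1R, FGFR1 and FGFR4 read higher by 0.30, 0.16 and 0.08, which turned to -0.88, -0.90 and -1.12 on the deposited values with their common shift.

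The siPSF differences were also set against the genomic span of each receptor gene. EGFR, IGF1R, INSR and MET span 193, 316, 182 and 126 kb of GRCh38.p14, and all 4 read lower with siPSF, though IGF1R did so in its brighter probe set alone. ERBB2, ERBB3, FGFR1 and FGFR4 span 40.6, 23.4, 57.5 and 11.2 kb, and all 4 read higher, with FGFR1 turning to -0.02 on centred values. FGFR1 and FGFR4 were dim in both the siPSF and siControl arrays. FGFR2, at 120 kb, was the long receptor gene that read higher. FGFR3, at 15.6 kb and dim in all arrays, differed by -0.06. Across the 10 receptors Spearman's rho between span and the siPSF difference was -0.65, a description over genes that share the same 2 arrays, and over 11041 kept genes it was -0.16. For untransfected LTAD against LNCaP the receptors gave -0.43 and all kept genes 0.01, and for siControl against untransfected LTAD 0.01 and -0.03. For siControl LTAD against LNCaP they gave -0.42 and -0.03, and for siPSF against untransfected LTAD -0.37 and -0.10.

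Over all kept genes the siPSF difference had a median of 0.01 for the 5823 genes under 30 kb, -0.01 for the 3382 genes from 30 to 100 kb and -0.10 for the 1836 genes of 100 kb or more. Of the genes of 100 kb or more, 64.4% read lower with siPSF, against 48.7% of those under 30 kb. The 5 kept receptors of 100 kb or more had a median of -0.38, and 4 read lower. Of these 4, IGF1R, INSR and MET were dim in both arrays and EGFR with siPSF. Of 7 other kept receptor tyrosine kinase genes of that size 3 read lower, with a median of 0.04. Among them EPHA3, EPHA6, EPHA7 and ROR2 were dim in both arrays and MERTK in siControl. ROR1 and LMTK2, dim in neither array, differed by -0.20 and 0.14. The part of span in these readings was not tested.

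**Figure D3:**
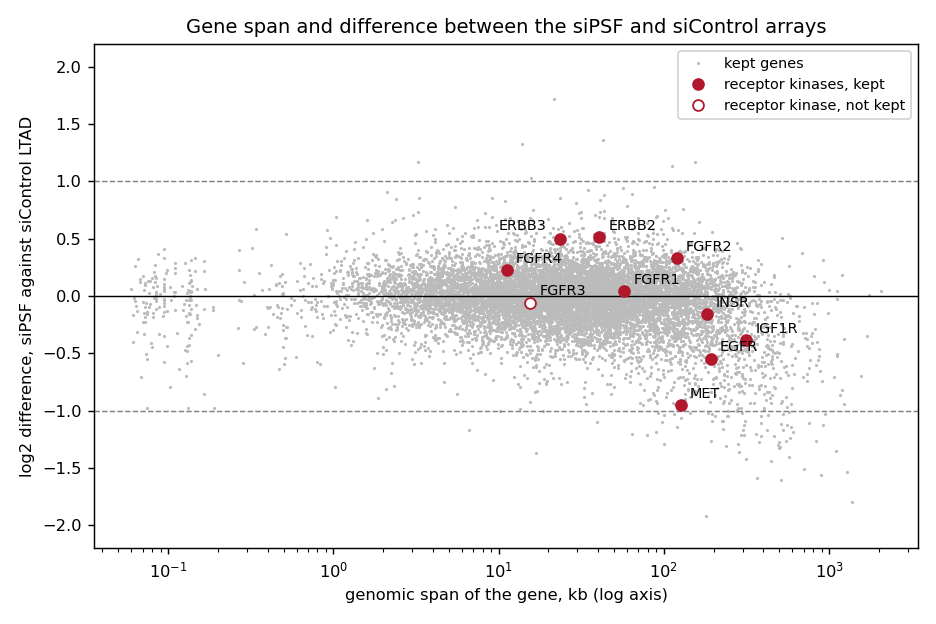
Log2 difference of siPSF against siControl LTAD (vertical axis) by genomic span in kb (log axis) for the 11041 kept genes with a span (grey) and for the 10 receptors (red, open for FGFR3, which was not kept). EGFR, IGF1R, INSR and MET lie below 0 among the long genes, FGFR2 above 0 at 120 kb, and ERBB2 and ERBB3 near 0.5.

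Genes around the receptors were read from 8 lists of ligands, carriers, adaptors, inhibitors, cascade members, targets and other receptor tyrosine kinases. Of 178 entries 155 were measured and 93 kept. Between siPSF and siControl none of these 93 was at least 2-fold higher and 2 were at least 2-fold lower, beside 0.0634% and 0.661% of all kept genes. The 2 were the transcription factor gene ETV1 and the ephrin receptor gene EPHA6. ETV1, a factor activated by ERK signalling, read 9.56 with siPSF and 10.60 with siControl, against 10.56 in untransfected LTAD and 10.37 in LNCaP. It was low in the siPSF array alone. EPHA6 differed by -1.03, with both levels dim.

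Ligands were mostly dim, with 7 of 30 measured genes kept. Of these, NRG3, a neuregulin, read 5.80 with siPSF, 6.32 with siControl, 8.12 in untransfected LTAD and 5.42 in LNCaP, and was bright in untransfected LTAD alone. EGF, the ligand of EGFR, read 4.84 with siPSF, 5.08 with siControl, 5.46 in untransfected LTAD and 7.21 in LNCaP. EGF was thus dim in all 3 LTAD arrays and differed by -1.75 between untransfected LTAD and LNCaP, where EGFR differed by -0.57. The 7 kept ligands had a median siPSF difference of -0.09, with HBEGF, dim in both arrays, highest at 0.17.

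Some carriers of insulin-like growth factors differed widely between the transfected and untransfected arrays. IGFBP5, which binds these factors in the matrix, read 9.47 with siPSF and 8.61 with siControl, against 5.42 in untransfected LTAD and 4.60 in LNCaP, both dim. IGFBP3, the main carrier in serum, ran the other way, at 7.73 with siPSF and 7.55 with siControl, against 11.77 in untransfected LTAD and 10.55 in LNCaP. Its siControl level was dim. IGFBP2 read 12.12 with siPSF, 12.00 with siControl, 10.61 in untransfected LTAD and 10.18 in LNCaP. Among the 10 kept genes of this list, 9 were above 0 between siPSF and siControl, with IGFBP5 highest at 0.85 and IGF2R, which clears IGF2, at 0.45, and none passed 2-fold. IGFBP4 and IGFBP1 varied less, with siPSF differences of 0.15 and 0.03 between dim levels. The list median was 0.15, against -0.01 over all kept genes. NRP1, a co-receptor, read higher by 1.25 in untransfected LTAD than in LNCaP.

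Of 13 kept adaptor genes, which link receptors to their cascades, 2 were at least 2-fold higher in untransfected LTAD than in LNCaP and none lower, beside 2.27% and 3.42% of all kept genes. GRB14, which binds and restrains the insulin receptor, read 6.70 with siPSF, 7.33 with siControl, 8.08 in untransfected LTAD and 5.81 in LNCaP, and was dim in all but untransfected LTAD. GAB1, the docking protein downstream of MET, read higher by 1.07. The general adaptors SHC1 and GRB2 differed by 0.08 and 0.01 between siPSF and siControl, and the list median there was 0.05.

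Feedback inhibitors were split between siPSF and siControl, with 7 of 14 kept genes above 0. SPRY1 differed by -0.51, LRIG3 by -0.27, SOCS1 by 0.35 and ERRFI1, an inhibitor of the EGFR kinase, by 0.31. SPRY1 was dim with siPSF and SOCS1 in both arrays. Between untransfected LTAD and LNCaP the phosphatase gene DUSP4 was lower, with a level of 5.59 against 8.03, and DUSP5 too, with 6.71 against 7.96. DUSP4 also differed between siControl LTAD and LNCaP, by -1.63, and was dim in every LTAD array. SOCS2 read higher by 1.11 in untransfected LTAD.

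In the RAS-ERK list, RPS6KA3, a kinase activated by ERK, read 6.89 with siPSF and 7.84 with siControl, against 7.89 in untransfected LTAD and 9.97 in LNCaP. It was lowest with siPSF, by -0.95 from siControl, and dim there, and all 3 LTAD arrays lay below LNCaP. The other 6 kept genes of this list differed by at most 0.12 in either direction between siPSF and siControl. In the PI3K branch PIK3R1 differed by -0.49 and FOXO3 by -0.48 there, and PDPK1 by 0.35, with 7 of 15 kept genes above 0. INPP4B, a lipid phosphatase that opposes PI3K, read 4.25 with siPSF and 4.54 with siControl, both dim, against 7.43 in untransfected LTAD and 7.42 in LNCaP. Among ERK-induced genes PHLDA1 read 8.86 with siPSF and 8.87 with siControl, against 6.44 in untransfected LTAD and 6.40 in LNCaP, both dim.

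Of 20 other kept receptor tyrosine kinases, 4 were at least 2-fold higher in untransfected LTAD than in LNCaP, where 2.27% of all kept genes were, and none was lower, where 3.42% were. EPHA7 differed by 1.63, EPHA3 by 1.28, ROR2 by 1.24 and ROR1 by 1.04, with the LNCaP levels of EPHA7 and ROR2 dim. In siControl against untransfected LTAD, 3 of these were at least 2-fold lower, beside 4.32% of all kept genes, with -3.87 for EPHA7, -3.11 for EPHA3 and -1.34 for ROR1, where the siControl levels of EPHA7 and EPHA3 were dim. Between siPSF and siControl 14 of the 20 read higher, with a median of 0.10 against -0.01 over all kept genes. MERTK differed by 0.76, EPHA2 by 0.50 and EPHA3 by -0.81. EPHA2 and EPHA3 were dim in both arrays and MERTK in siControl.

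**Figure D4:**
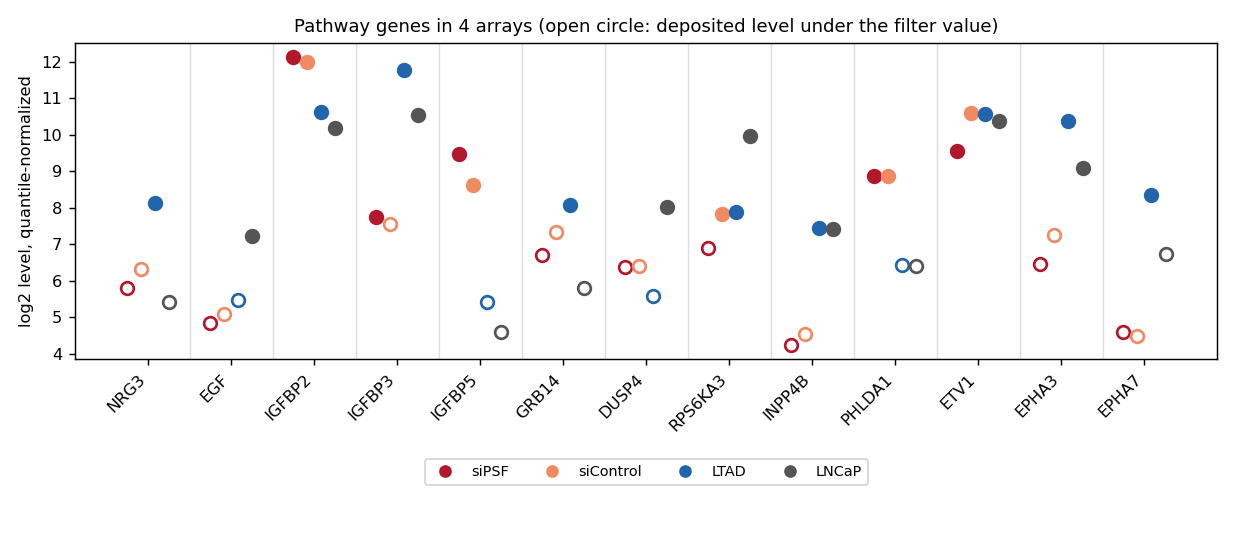
Quantile-normalized log2 level (vertical axis) of 13 genes from the lists in the siPSF, siControl, untransfected LTAD and LNCaP arrays, 1 array a point, with open circles where the deposited level was under 7.238. IGFBP5, IGFBP2 and PHLDA1 are high in the transfected arrays, IGFBP3, INPP4B, EPHA3 and EPHA7 are low there, and EGF, DUSP4 and RPS6KA3 are highest in LNCaP.

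Genes with the pattern most like that of a receptor were sought over the 4 arrays for the 4 kept receptors with a range of at least 1, by the Euclidean distance between levels after the gene mean was taken off. For FGFR2 the nearest was IGFBP2, at a distance of 0.28, then TNS1 at 0.29 and HSPB8 at 0.36. For EGFR they were HSD17B12 at 0.26, LRBA at 0.30 and NIPSNAP3A at 0.30. IGF1R was nearest to TMPRSS11E, ST6GALNAC1 and SORBS2, at 0.24, 0.25 and 0.25, and MET to ZNF704, DIAPH2 and NOVA1, at 0.31, 0.32 and 0.35. With 4 points a gene, such nearness is a description of these arrays.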

How the data were processed

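The authors deposited log2 levels for the probe sets of 4 arrays, and the submitters' processing notes name RMA and Affymetrix Expression Console. Which arrays were normalized together, array batch and detection calls are not given in the sources used here. Each array's group came from its label. Of 33297 probe sets 19460 had 1 gene symbol, 1754 had several and 12083 were unnamed here. Symbols were updated by Entrez ID to the RefSeq table of GRCh38.p14, which matched 19429 IDs, and gene spans and promoters came from RefSeq too. Where a gene had more than 1 probe set, as 769 did, the brightest on average was taken. Some list genes were not analysed here.

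Computed here, with Python 3.11.15, numpy 2.4.6 and pandas 2.3.3, were quantile normalization of the 4 arrays, the filter at a deposited 7.238, log2 differences and counts at 2-fold. The comparison code was tested on simulated data. Listed genes were named where they had the largest differences at 2-fold or more in a list (up to 4 a direction) or the 2 largest siPSF differences in each direction, and SHC1 and GRB2 were added after their values were seen. Receptors, lists and rules were chosen with earlier results of these data known. Alternatives were the scale, the filter, the probe set rule, the fold threshold and the control array. No statistical test was possible, and precision is limited by the number of arrays.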

Additional observations from a re-analysis of the deposited data

How the results depend on the processing

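With 1 array a group, leaving out a replicate was not possible, and single-array differences carry no error. No paired analysis was possible because each group has 1 array. No receptor or gene count below has a test, and the cause of each change was not tested beyond what the setting itself does. Filters and the fold threshold leave the difference of a single receptor as it is. Of the 89 single-receptor values under the settings that can change it, 65 kept their direction and their side of 2-fold, 24 did not, and none that was past 2-fold changed sign.

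For siPSF against siControl, 7 genes higher and 73 lower became 4 and 44 with the filter at the 75th percentile, 17 higher with no filter, and 82 and 345 at 1.5-fold, where 1 receptor, MET, was called lower. With untransfected LTAD as control they became 511 and 579, with 1 receptor higher (FGFR2) and 2 lower (EGFR and MET). For untransfected LTAD against LNCaP, 251 higher and 378 lower became 355 and 255 on deposited values and 191 and 425 on centred values. They became 156 and 205 at the 75th percentile, with 0 receptors called either way, since that filter left MET and IGF1R out. It kept 3 receptors, EGFR, ERBB2 and ERBB3. At 1.5-fold the counts became 738 and 973, with 3 receptors higher. Deposited values called 2 receptors higher (ERBB2 joining MET), and the filter on quantile-normalized values 0, since it left MET out.

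For siControl LTAD against LNCaP, 250 higher and 328 lower became 52 and 2719 on deposited values, with 4 receptors and 28 list genes lower, and 448 and 286 on centred values. They became 117 and 210 at the 75th percentile, with 0 receptors higher and 1 lower (EGFR), since it left FGFR2 and IGF1R out. They became 404 higher with no filter, with 7 list genes higher, and 1014 and 912 at 1.5-fold. For siControl against untransfected LTAD, 612 higher and 477 lower became 65 and 4791 on deposited values, with 0 receptors higher and 6 lower, and 2 list genes higher and 48 lower. They became 1204 and 329 on centred values. At the 75th percentile 300 were higher, with 0 receptors higher, since that filter left FGFR2 out. At 1.5-fold the counts became 1649 and 1289, with 3 receptors lower. With no filter 7 list genes were higher there. The dimmer IGF1R probe set, added after seeing the data, gave -1.66, -1.14, 0.52 and 0.05 for untransfected LTAD against LNCaP, siControl LTAD against LNCaP, siControl against untransfected LTAD and siPSF against siControl.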

Other observations

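Some pathway genes outside the 11049 kept genes still differed between arrays, and these were chosen after their values were seen. HGF, the ligand of MET, read 6.72 with siPSF and 6.79 with siControl, against 3.85 in untransfected LTAD and 4.01 in LNCaP after quantile normalization, and its deposited levels were under 7.238 in all 4 arrays. SPRED1, an inhibitor of the RAS-ERK cascade, read 6.77 with siPSF and 7.63 with siControl, against 6.51 in untransfected LTAD and 6.45 in LNCaP, and its gene spans 104 kb. SPRY4, another inhibitor of that cascade, read 5.22 with siPSF and 5.15 with siControl, against 6.48 in untransfected LTAD and 6.64 in LNCaP. IRS4, a docking protein of the insulin and IGF receptors, read 5.56 with siPSF and 5.71 with siControl, against 4.43 in untransfected LTAD and 4.24 in LNCaP. None of these levels was shown to be above background.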
